A study of Rattus norvegicus with 12 samples.

Results

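The miR-181 family was taken from a small RNA survey of fetal rat spinal cord as every mature microRNA (miRNA) of the deposited table whose name starts with miR-181. This gave 10 of 753 mature miRNAs: the 5p arms of miR-181a, miR-181b, miR-181c and miR-181d, and 6 distinct 3p arms. All samples were lumbosacral spinal cord of Wistar rat fetuses at embryonic day 19. One group was labelled normal. The other had anorectal malformations (ARM), in which the hindgut and anus do not form properly, induced with ETU (ethylenethiourea), a teratogen given to the dam. Every ARM fetus was exposed and no exposed fetus lacked ARM, so exposure and malformation cannot be told apart. There were 3 miRNA libraries per group (replicates 4 to 6). Nothing in the labels says whether they came from separate fetuses, pools or litters, so any p-value covers no more than the spread between these libraries, which may be technical.

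A miRNA hairpin is cut into a 5p and a 3p strand, one of which is usually kept in an Argonaute protein and guides it to messenger RNAs that pair with its seed, bases 2 to 8. The miR-181 family is known from mouse lymphocytes, where miR-181a sets the sensitivity of the T cell receptor by repressing phosphatases, and from brain, where its members are found in neurons and astrocytes and repress, among others, messenger RNAs of the Bcl-2 survival family. In other mammals, too, its members are encoded in 3 pairs of neighbouring hairpins.

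The mature sequences show what makes these miRNAs one family and how little separates its members. RefSeq (build GRCr8) held 9 of the 10, all but miR-181b-2-3p, and the seed is in capitals in each of the 5p strands, which carry the family's shared seed:

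miR-181a-5p: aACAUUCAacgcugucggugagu

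miR-181b-5p: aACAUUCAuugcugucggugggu

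miR-181c-5p: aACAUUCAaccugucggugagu

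miR-181d-5p: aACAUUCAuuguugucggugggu

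All 4 share the seed ACAUUCA, which pairs with UGAAUGU in a target. They were the only 4 of 693 mature rat miRNAs of the RefSeq table with it. Counted from 1 at the 5′ end, miR-181b-5p differs from miR-181a-5p by A9U, C10U and A21G, and miR-181d-5p differs from miR-181b-5p by C12U alone. The miR-181c-5p strand is miR-181a-5p without its G at position 11. All of these differences lie outside the seed. No source used here states how reads that matched several members equally well were counted, so levels of single members could be affected by the counting, whereas the summed level of the family is less exposed to it.

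The 3p strands are less alike, with the seed again in capitals:

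miR-181a-1-3p: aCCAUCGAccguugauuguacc

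miR-181c-3p: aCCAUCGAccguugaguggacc

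miR-181a-2-3p: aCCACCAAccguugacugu

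miR-181b-1-3p: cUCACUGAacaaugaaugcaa

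miR-181d-3p: cCACCGGGggaugaauguca

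The miR-181a-1-3p and miR-181c-3p strands come from different chromosomes and share the seed CCAUCGA, which no other mature miRNA of the RefSeq table carried. They differ by U16G and U19G, counted from the 5′ end with miR-181a-1-3p as reference. The other 3 seeds each occurred in 1 mature miRNA of the table.

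In RefSeq GRCr8 the hairpins lie in 3 pairs on the plus strand. Hairpins a-1 and b-1 are on chromosome 13 (52037067 to 52037166 and 52037228 to 52037337, 61 bases apart), within the span of the lncRNA gene LOC108352541. The nearest protein-coding gene is Ptprc, which encodes the leukocyte phosphatase CD45. It lies far off, 110550 bases from a-1 and 110379 bases from b-1. Hairpins a-2 and b-2 are on chromosome 3 (43025563 to 43025679 and 43026666 to 43026753, 986 bases apart), within the span of Nr6a1, a nuclear receptor gene on the minus strand, and of the lncRNA gene LOC120101539. Hairpins c and d are on chromosome 19 (40888291 to 40888396 and 40888474 to 40888556, 77 bases apart) in no annotated gene, with the germ cell gene Nanos3 starting 974 bases past miR-181d. The table used gives gene spans only, so exon or intron positions are not stated. The mature miR-181a-5p is identical from both of its hairpins, and the expression table gives miR-181b-5p as 1 entry beside 2 hairpin-specific 3p entries. Only the 3p arms and the c and d members can therefore be assigned to a chromosome.

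The 6 miRNA libraries held 11230621 to 13832152 counts over the 753 miRNAs, and 3 counts, the upper limit that a count of 0 allows, corresponded to 0.217 to 0.267 CPM (counts scaled to the library's miRNA total). A mature miRNA is read over its whole length, so CPM of different miRNAs are compared here without a length term. How evenly the library preparation captured different sequences is not known. Ratios between miRNAs or arms are therefore ratios of counts, here and below, and may differ from ratios of molecules. Neural miRNAs were abundant in every library, with miR-9a-5p and miR-9a-3p together at 317581 to 347650 CPM. The 3 listed miRNAs of Hox clusters summed to 97269 to 127533 CPM. Most of that sum was miR-10a-5p (78218 to 103045 CPM), while miR-196a-5p held 973 to 1325 CPM. The 3 erythroid miRNAs found in the table (miR-451-5p, miR-144-3p and miR-144-5p) were at 0 throughout. As 142 of the 753 miRNAs were at 0 in every library, these zeros do not show that blood RNA was absent. Normal replicate 4 stood apart: its counts differed from those of the other libraries with a median chi-square of 342 per degree of freedom, against 87.2 to 177 for the other 5. It also held 85.3 CPM of the liver miRNA miR-122-5p, against 1.46 to 11.9 CPM elsewhere. Some fitted or tested miR-181 differences moved by over 1.5 times or turned their sign without this library. Their values without it are given below or in the closing section. The marker miRNAs and their sums were not compared without it.

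The family as a whole was an abundant one in fetal spinal cord. Its 10 members together took 1.58% to 1.84% of the miRNA counts of a library. Ranked by mean level over the 6 libraries, miR-181a-5p was number 17 of 753, miR-181d-5p number 34 and miR-181b-5p number 55. The levels spanned more than 3 orders of magnitude, from miR-181a-5p at 9309 ± 468 CPM (SD, n = 6) to miR-181d-3p at 1.45 ± 0.266 CPM (SD, n = 6), where a library held 13 to 26 counts. All 10 members were detected in all 6 libraries and all passed the expression filter.

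**Figure D1:**
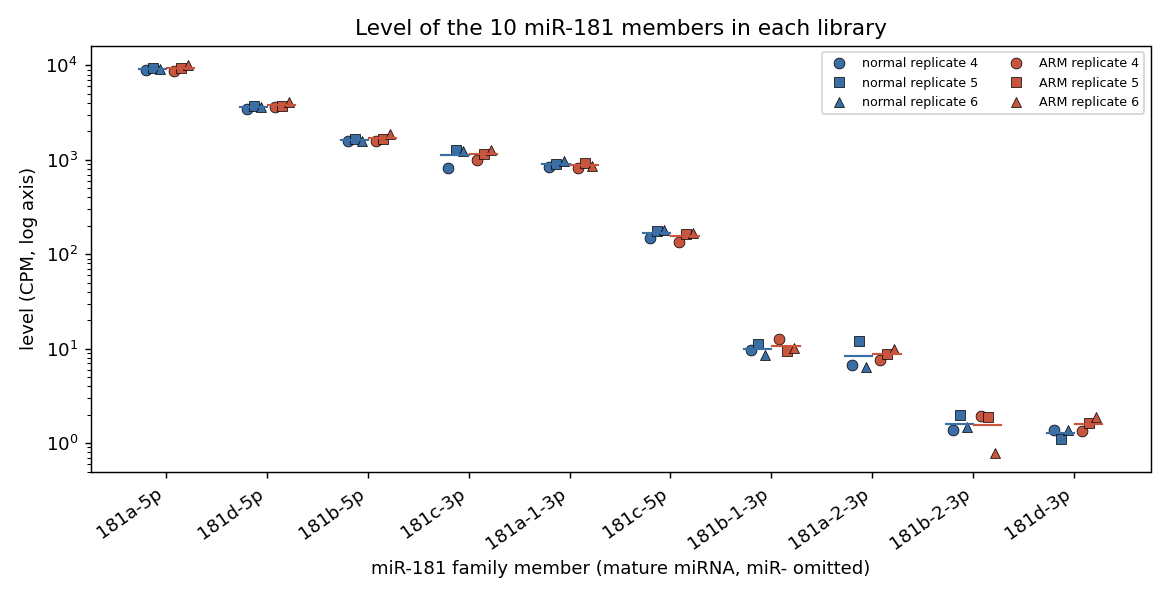
Level of each miR-181 member in CPM (log axis) in the 3 normal and 3 ARM libraries, with short lines at the group means. Members are ordered by mean level, from miR-181a-5p at 8696 to 10035 CPM to miR-181d-3p at 1.11 to 1.88 CPM, and normal and ARM points overlap for every member.

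The 5p strand of miR-181a, the member best known from lymphocytes, led the family. Its level was 8956, 9453 and 9217 CPM in the normal libraries and 8696, 9499 and 10035 CPM in the ARM libraries (replicates 4, 5 and 6 in this order, here and below). The ARM libraries held both the lowest and the highest value, so the groups overlapped. The 5p strand of miR-181d was second, at 3433, 3747 and 3601 CPM in normal and 3596, 3724 and 4125 CPM in ARM. Only ARM replicate 6 lay above all normal libraries. Normal libraries held 1601, 1655 and 1572 CPM of miR-181b-5p, and ARM libraries 1589, 1663 and 1881 CPM, again with ARM replicate 6 highest and the other libraries mixed. These 3 strands kept the same order in every library: miR-181a-5p was 2.42 to 2.61 times miR-181d-5p, and miR-181d-5p was 2.14 to 2.29 times miR-181b-5p, although these last sequences differ by a single base.

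The next members were 3p strands. Normal libraries held 822, 1281 and 1240 CPM of miR-181c-3p, and ARM libraries 1004, 1163 and 1258 CPM. Normal replicate 4 was the lowest of the 6, and the SD of this member was 22.8% of its mean in normal libraries, against 0.853% from counting error alone. For miR-181a-1-3p, which shares its seed, normal libraries held 838, 897 and 967 CPM and ARM libraries 828, 929 and 863 CPM. These neighbours in the order did not separate: miR-181c-3p was the higher in 5 of 6 libraries, with the exception of normal replicate 4, and their ranges overlapped. The 5p strand of miR-181c followed well below, at 147, 175 and 179 CPM in normal and 135, 162 and 168 CPM in ARM, with replicate 4 the lowest of each group.

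The remaining members were rare. Normal libraries held 9.67, 11.3 and 8.58 CPM of miR-181b-1-3p, and ARM libraries 12.7, 9.42 and 10.1 CPM. For miR-181a-2-3p it was 6.77, 12.0 and 6.34 CPM in normal and 7.57, 8.83 and 9.90 CPM in ARM, with normal replicate 5 the highest of the 6. These neighbours also exchanged places, since miR-181a-2-3p was the higher in normal replicate 5. The members miR-181b-2-3p, at 11 to 23 counts and 0.795 to 1.97 CPM, and miR-181d-3p, at 1.11 to 1.88 CPM, overlapped and took the last places, with miR-181b-2-3p higher in 4 of 6 libraries. At these depths counting error alone gives an SD of 22.4% to 25.0% of the mean.

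The 5p strands set the composition of the family. Of their summed counts, miR-181a-5p took 61.9% to 63.4%, miR-181d-5p 24.3% to 25.7%, miR-181b-5p 10.8% to 11.6% and miR-181c-5p 0.966% to 1.23%. As a group mean, the miR-181a-5p share was 63.2% ± 0.241 in normal and 62.4% ± 0.664 in ARM (SD, n = 3 each). The ranges of the groups overlapped (two-sided exact permutation p = 0.2, where 3 libraries against 3 cannot go below 0.1).

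The arm that held most of the counts differed between members, and miR-181c stood opposite to miR-181a, miR-181b and miR-181d. To show how the strands lie, its hairpin and that of its neighbour miR-181d, on the plus strand of chromosome 19 (GRCr8, 106 and 83 bases), are printed with the mature strands in capitals, 5p first and 3p second:

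miR-181c hairpin: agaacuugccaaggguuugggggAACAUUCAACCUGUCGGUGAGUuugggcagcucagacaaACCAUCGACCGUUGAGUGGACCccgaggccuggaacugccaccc

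miR-181d hairpin: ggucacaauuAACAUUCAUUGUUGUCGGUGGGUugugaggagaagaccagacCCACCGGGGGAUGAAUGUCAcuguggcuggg

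For miR-181c the 3p strand made up 84.8%, 88.0% and 87.4% of the counts of both arms in normal and 88.1%, 87.7% and 88.2% in ARM. The 95% Wilson intervals of these shares were 0.900 to 1.28 percentage points wide and cover counting error only. In counts, miR-181c-3p exceeded miR-181c-5p by 5.58-fold in normal replicate 4 and by 6.93-fold to 7.49-fold in the other 5 libraries. For miR-181d, 77 bases away, the 3p share was 0.0296% to 0.0456%, so that almost all of its counts came from the 5p strand. With the strands of both hairpins summed, the 3p share of miR-181a was 8.98% ± 0.502 in normal and 8.58% ± 0.519 in ARM (SD, n = 3 each), and that of miR-181b was 0.577% to 0.916%. The 5p strands of the neighbours c and d differed as well, with miR-181d-5p at 20.1 to 26.5 times the counts of miR-181c-5p.

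Dominance of a 3p strand was not unusual in these libraries. Of 190 arm pairs of the whole table with at least 1000 counts over the 6 libraries, 87 (45.8%) had more than 50% of their counts on the 3p arm, and the median 3p share was 43.7%. The share of miR-181c over all libraries was 87.5%, with 69 pairs above it, and that of miR-181d was 0.0394%, with 10 pairs below it. The family thus held a pair of adjacent hairpins at opposite sides of this range. The 3p share of miR-181c was 86.7% ± 1.70 in normal and 88.0% ± 0.251 in ARM (SD, n = 3 each, exact permutation p = 0.2, two-sided). The difference was 1.29 percentage points and fell to 0.331 without normal replicate 4.

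**Figure D2:**
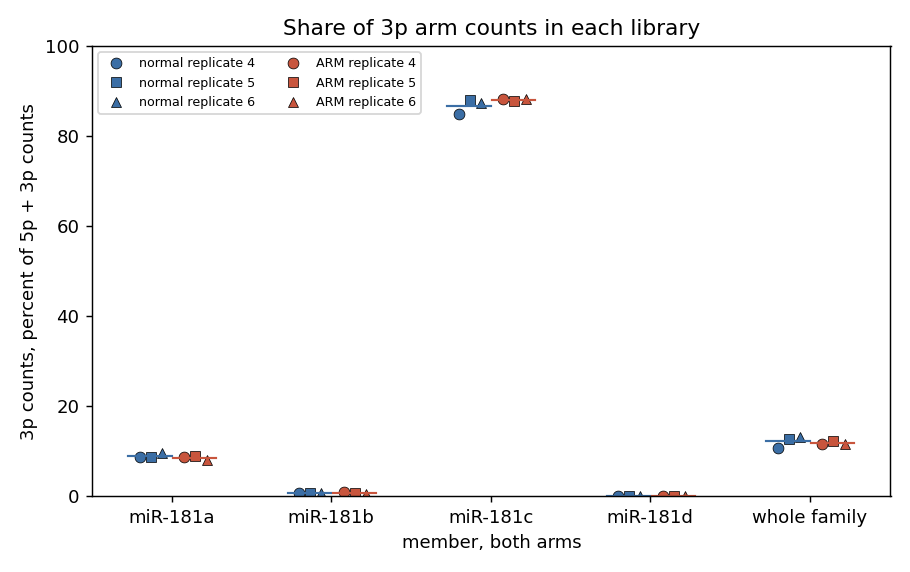
Counts of the 3p arm as a percent of the counts of both arms for each miR-181 member and the whole family, with 1 point per library and short lines at the group means. The 3p share of miR-181c lies at 84.8% to 88.2% in every library, whereas those of miR-181a, miR-181b and miR-181d are at most 9.56%.

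Over the whole family the 3p strands took 10.6%, 12.8% and 13.2% of counts in normal and 11.7%, 12.3% and 11.7% in ARM. Both the lowest and the highest share belonged to normal libraries. The means were 12.2% ± 1.41 and 11.9% ± 0.363 (SD, n = 3 each, exact permutation p = 0.8, two-sided). The difference of -0.322 percentage points was -1.12 without normal replicate 4.

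The hairpin-specific strands allow the chromosomes to be compared. The 3p strands from chromosome 13 (a-1 and b-1) summed to 911 ± 64.1 CPM in normal and 884 ± 49.6 CPM in ARM, and those from chromosome 3 (a-2 and b-2) to 9.96 ± 3.44 and 10.3 ± 0.680 CPM (SD, n = 3 each). The chromosome 13 sum was 65.2 to 125 times the chromosome 3 sum, with normal replicate 5 lowest and normal replicate 6 highest. Of the miR-181a 3p counts, 98.7% to 99.3% were miR-181a-1-3p, and of the miR-181b 3p counts, 83.3% to 92.7% were miR-181b-1-3p. A 3p level also depends on how much of that strand is kept, so these ratios do not measure transcription of the hairpins. The c and d members of chromosome 19, both arms summed, took 27.8% to 30.3% of the family's counts, and the strands that cannot be assigned, miR-181a-5p and miR-181b-5p, took 64.2% to 66.8%.

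Whether the family differs between ARM and normal cord was asked with a single fit over all miRNAs, edgeR's quasi-likelihood test with Benjamini-Hochberg adjustment. Of 467 miRNAs tested, edgeR called 0 (0% called at an adjusted p under 0.05, 29 at an unadjusted p under 0.05), limma-voom called 0 and DESeq2 called 1, which was no miR-181 member. Of the 10 members 0 were called, and 0 had an unadjusted p under 0.05. The smallest edgeR adjusted p among them was 0.781, for miR-181d-5p. The estimates, as log2 fold changes of ARM over normal, were above 0 for 7 members and below 0 for 3, with a median of 0.078, against 239 of 467 above 0 and a median of 0.0063 over all miRNAs tested. The ranges of the groups overlapped for all 10 members. Among all 467 tested miRNAs, 56 (12%) had groups that did not overlap. With only 10 members, 0 of 10 does not set the family apart from that share.

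**Figure D3:**
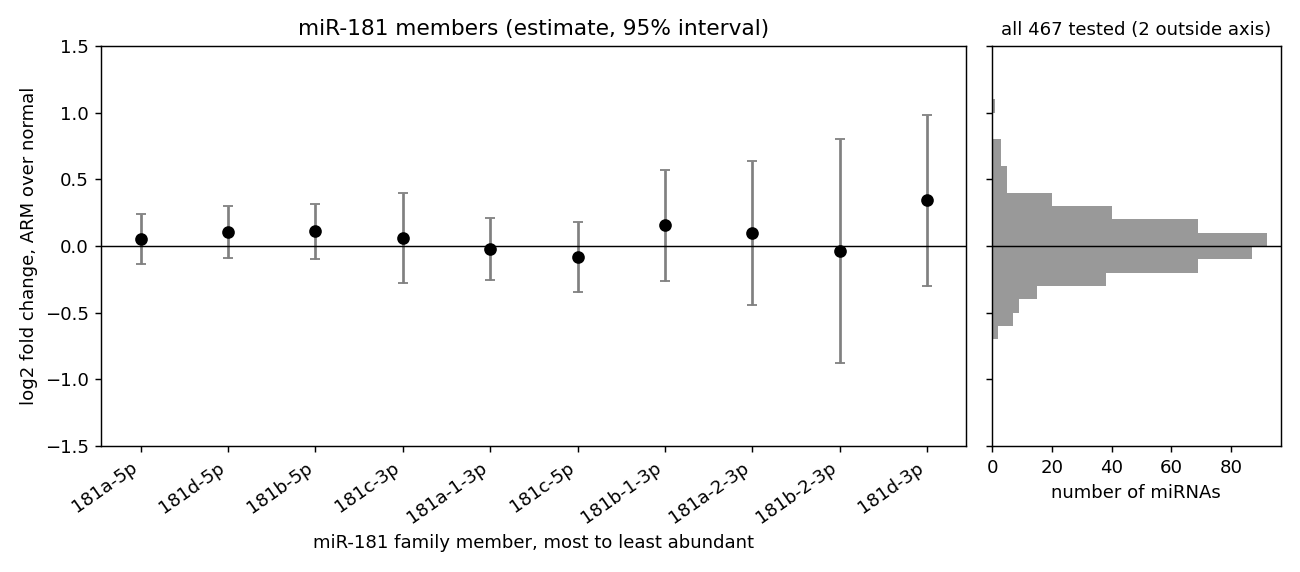
Left, log2 fold change of ARM over normal for each miR-181 member with its 95% interval from the edgeR fit, from the most to the least abundant member. Right, the same estimates for all 467 tested miRNAs as a histogram on the same axis, with 2 miRNAs outside it. All 10 intervals include 0, and they widen from the abundant members to the rare ones.

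The intervals of the abundant 5p strands were narrow. For miR-181a-5p the means were 9209 ± 249 and 9410 ± 674 CPM in normal and ARM libraries (SD, n = 3 each), and the log2 fold change was 0.053 (SE 0.085, 95% interval -0.13 to 0.24), which spans 0.911-fold to 1.18-fold. For miR-181d-5p the means were 3594 ± 157 and 3815 ± 276 CPM (0.11, SE 0.088, interval -0.087 to 0.30), and for miR-181b-5p 1609 ± 42.0 and 1711 ± 152 CPM (0.11, SE 0.093, interval -0.098 to 0.31). The upper ends of the last 2 intervals are 1.23-fold and 1.24-fold. For these 3 members the estimate stayed above 0 in each edgeR fit (TMM scaling) that left out 1 library. With counts scaled to the library total, single members were not refitted without 1 library. For miR-181c-5p, the 1 of the 4 with a lower estimate, the means were 167 ± 17.2 and 155 ± 17.4 CPM (-0.082, SE 0.12, interval -0.35 to 0.18). Its estimate was -0.15 without normal replicate 4 and -0.0071 without ARM replicate 4.

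For 5 of the 6 3p strands the direction of the estimate turned when 1 library was left out, and for miR-181d-3p it did not. For miR-181c-3p the means were 1114 ± 254 and 1141 ± 128 CPM (0.059, SE 0.15, interval -0.28 to 0.40), and without normal replicate 4 the estimate was -0.11. For miR-181a-1-3p they were 901 ± 64.7 and 873 ± 51.1 CPM (-0.020, SE 0.11, interval -0.25 to 0.21). Without normal replicate 6, ARM replicate 4 or ARM replicate 6 that estimate was above 0 (0.0016 to 0.032). Without normal replicate 4 it was -0.058. For miR-181a-2-3p the estimate was 0.097 (SE 0.24), and -0.020 without normal replicate 4. For miR-181b-2-3p it was -0.038 (SE 0.38), and -0.12 without that library. For the rarest 3p strands the intervals were wide, reaching from -0.88 to 0.80 for miR-181b-2-3p and from -0.30 to 0.98 for miR-181d-3p, with upper ends of 1.75-fold and 1.98-fold.

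Normal libraries held 16615 ± 725 CPM of the whole family and ARM libraries 17128 ± 1241 CPM (SD, n = 3 each). With counts scaled to the library total, the mean log2 difference was 0.042 (two-sided exact permutation p = 0.6). On that scaling it was -0.0087 without ARM replicate 6, the library with the highest sum, and 0.0073 without normal replicate 4. The single members above were fitted with TMM scaling instead. With TMM-scaled library sizes the difference of the sum was 0.065 (exact permutation p = 0.3).

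The family was set beside 3 other miRNA families of the table, both arms summed: miR-30, which is broadly expressed; miR-29, which is known to rise late in brain maturation and to repress collagens; and the miR-15 group (miR-15b, miR-16, miR-195 and miR-497), which repress cell cycle genes. The table held 9, 7 and 8 members of these, against 10 of miR-181. In CPM the sums were 27029 to 30185 for miR-30, 48.0 to 68.7 for miR-29 and 387 to 444 for the miR-15 group, against 15817 to 18352 for miR-181, so that the 4 families did not overlap. The 3p strands took 89.2% to 92.7% of the miR-29 counts, 2.96% to 4.86% of the miR-30 counts and 3.40% to 4.82% of the miR-15 group's counts, on either side of the 10.6% to 13.2% of the miR-181 family.

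**Figure D4:**
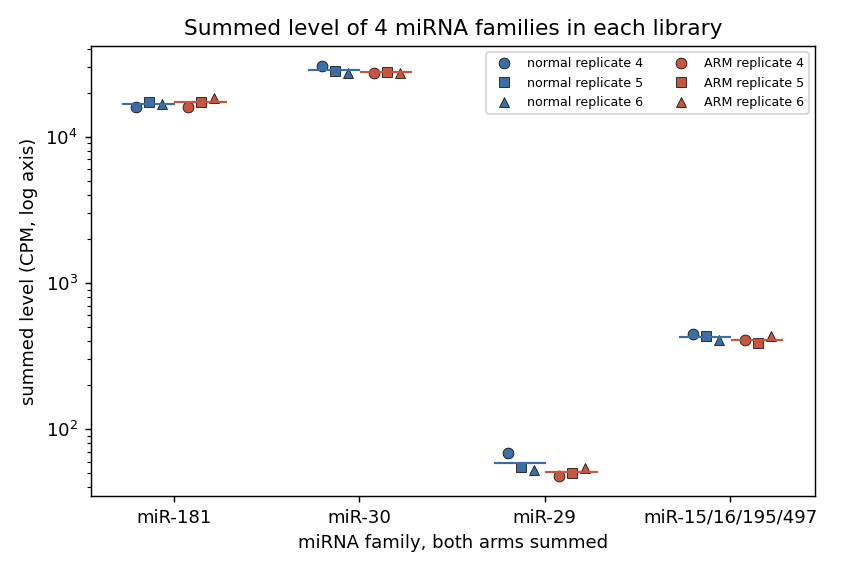
Summed level in CPM (log axis) of the miR-181, miR-30, miR-29 and miR-15 group families in the 3 normal and 3 ARM libraries, with short lines at the group means. The miR-181 sum of 15817 to 18352 CPM lies below that of miR-30 and far above the others, and normal replicate 4 lies above the other libraries in the miR-29 family.

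Whether the miR-181 family moved differently from these families was tested on the log2 ratio of its sum to theirs, in each library. The ratio to miR-29 was 8.15 ± 0.264 in normal and 8.40 ± 0.027 in ARM (SD, n = 3 each). The two-sided exact permutation test gave p = 0.1, which is as low as it can go. All ARM libraries lay above all normal libraries, but the difference of 0.25 was 0.098 without normal replicate 4. Taken singly, the log2 difference of ARM from normal was -0.21 for the miR-29 sum and 0.042 for the miR-181 sum. Most of the difference in this ratio thus lay in miR-29. The ratio to miR-30 differed by 0.094 (exact permutation p = 0.5) and that to the miR-15 group by 0.11 (exact permutation p = 0.3), and for both the groups overlapped. Without normal replicate 4 these differences were 0.017 and 0.051. Over the 7 exact tests on shares and ratios the smallest Benjamini-Hochberg adjusted p was 0.467.

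Markers of cell types that could carry the family were measured in the same libraries. Most of these lists are dominated by 1 miRNA, so their sums mainly follow that miRNA, and no listed miRNA passed the edgeR threshold. The neuron list (5 of 5 detected) summed to 30011 to 32171 CPM in normal and 28500 to 29433 CPM in ARM. Its members were split: the estimates were -0.24 for the motor neuron miRNA miR-218a-5p and -0.094 for miR-124-3p, and 0.11 for miR-128-3p, 0.38 for miR-376a-3p and 0.038 for miR-434-3p. The astrocyte list (3 of 3 detected) summed to 7548 to 8688 CPM in normal and 6661 to 7508 CPM in ARM. Nearly all of that sum was miR-143-3p (-0.16), so it is not read here as a measure of astrocytes. The groups overlapped for the others, miR-29a-3p (-0.24) and miR-449a-5p (-0.61). The endothelial pair miR-126a-3p (-0.41) and miR-126a-5p (-0.32) summed to 9870 to 14582 CPM in normal and 7530 to 9602 CPM in ARM. The ranges of these 3 sums did not overlap between the groups. Of all 467 miRNAs tested singly, 56 (12%) did not overlap either. The ranges of the summed miR-181 level overlapped. The oligodendrocyte lineage list (3 of 3 detected) summed to 1382 to 1723 CPM in normal and 1693 to 1908 CPM in ARM. Almost all of that sum was miR-219a-2-3p (0.20), and the estimates of the others were 0.12 for miR-219a-5p and -0.54 for miR-338-3p. Skeletal muscle miRNAs (3 of 3 detected) summed to 136 to 276 CPM in normal and 51.8 to 338 CPM in ARM. What part these lists have in the miR-181 levels was not tested. In bulk tissue, fewer cells of a type and less RNA per cell cannot be told apart.

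Because miR-181a is best known from lymphocytes, the leukocyte list is given on its own. Of its 6 miRNAs, 4 were detected. The sum was 453.96 to 626.5 CPM in normal and 428.4 to 453.76 CPM in ARM, so that every ARM library was below every normal one, by little at the nearest point. The defining miR-142-3p and miR-142-5p were at 0 counts in all 6 libraries. The myeloid miR-223-3p was at 22 to 30 counts, or 1.85 to 2.18 CPM (log2 fold change 0.086), and miR-155-5p was at 5.26 to 7.03 CPM (0.12). The lymphocyte miRNA miR-150-5p was at 81.0 to 104 CPM (-0.27, with groups that did not overlap), and miR-146a-5p, which made up most of the sum, at 337 to 514 CPM (-0.21). By mean level miR-181a-5p was 102 times miR-150-5p and 4617 times miR-223-3p. Since 142 of the 753 miRNAs were at 0 in every library, the zeros of miR-142 do not show that leukocyte RNA was absent.

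The miRNAs whose levels followed miR-181a-5p most closely were sought among the 193 others with a mean of at least 100 CPM, by the root mean square difference of their centred log2(CPM + 0.5) values over the 6 libraries. Of these, miR-181d-5p was the nearest (0.039) and miR-181b-5p number 3 (0.044), whereas miR-181a-1-3p, cut from one of the same hairpins as miR-181a-5p, was number 28 (0.085), miR-181c-5p number 53 (0.11) and miR-181c-3p number 145 (0.19). The median of all 193 was 0.14. Outside the family the nearest were miR-135a-5p (0.042, at 538 to 623 CPM), miR-185-5p (0.047, at 601 to 708 CPM) and miR-374-5p (0.052, at 484 to 566 CPM), each with its highest or second highest value in ARM replicate 6. This measure favours miRNAs that vary little, as miR-181a-5p does, and all values share the 6 library totals. The 5p strands of the family are also nearly identical, and how reads matching several of them were counted is not known. What part such counting has in their nearness was not tested.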

How the data were processed

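Per the file headers, the authors deposited raw counts and TPM for each mature miRNA. Those TPM are the counts scaled to the column total (largest gap 0.000519). The deposited lncRNA table, used here for a name search and 1 transcript, gives raw counts per the file headers; its 6 FPKM columns were not used. A mouse build (mm10) and the tools TopHat2 2.0.9, CASAVA 1.8, Cuffdiff and Cufflinks 2.1.1 appear, with no role or order, in the submitters' processing notes. The small RNA mapping tool, the miRNA annotation release and the treatment of reads matching several miRNAs are not stated in the labels.

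Members and lists were chosen with earlier results of these data known. Columns were matched to libraries by heading, except the 3 normal lncRNA columns, whose headings (N9) differ from the label code (N19) and were matched to the group alone. EdgeR 4.0.16 in R 4.3.3 was fitted to all miRNAs (TMM scaling, default expression filter, phenotype alone, quasi-likelihood test, Benjamini-Hochberg adjustment, threshold 0.05). Standard errors (SE) are absolute log2 fold changes over the square root of F, and intervals are 95%. Two-sided exact permutation tests (scipy 1.17.1) compared shares, sums and ratios. Values in every library are given for members with a mean of at least 100 counts. Patterns were compared after adding 0.5 CPM. Sequences and positions are from RefSeq GRCr8. On simulated counts for this comparison (460 miRNAs), edgeR called 78 of 88 miRNAs changed 2-fold, 106 of 109 changed 4-fold and 3 of 263 unchanged ones. That simulation held many changed miRNAs and none changed by less than 2-fold. It therefore does not give the share called for smaller or isolated changes. No libraries were duplicates (smallest chi-square per degree of freedom 54.9). Alternatives were DESeq2 1.42.0, limma-voom (limma 3.58.1), other scalings, no filter, a replicate block and each library left out.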

Additional observations from a re-analysis of the deposited data

How the results depend on the processing

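In 120 refits of single members under other tests, scalings, filters, a replicate block or without 1 library, none was called (smallest adjusted p 0.539). The count of all miRNAs called was 1 with DESeq2, 5 with a replicate block (2 higher in ARM) and 0 to 9 without 1 library (9 without ARM replicate 6). The labels do not say whether replicate numbers pair the libraries. Same-numbered deviations correlated at -0.027, -0.070 and 0.0034, and differently numbered ones at -0.18 to 0.24. So few values cannot decide whether same-numbered libraries belong together. Without 1 library, log2 fold changes ranged from -0.084 to 0.032 for miR-181a-1-3p, -0.067 to 0.41 for miR-181a-2-3p, -0.0016 to 0.23 for miR-181b-1-3p, -0.26 to 0.32 for miR-181b-2-3p and -0.11 to 0.14 for miR-181c-3p, each reaching both signs. The other 5 members kept their direction in those 6 fits. The difference of the family sum, scaled to the library total, ranged from -0.0087 (without ARM replicate 6) to 0.096. The 3p share difference ranged from -1.12 to 0.195 percentage points (the latter without normal replicate 6). The lower miR-181a-5p share in ARM kept its sign (-1.19 to -0.586 points) and was -0.496 points against miR-181b-5p alone and -0.050 in log2 odds. The causes were not tested. Total-count scaling moved the median of all miRNAs from 0.0063 to -0.015. The alternatives for the miR-181c 3p share and the ratios to other families were added after seeing the data. Rare 3p members (11 to 26 counts a library for the 2 lowest) are limited by depth.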

Other observations

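RefSeq places a further hairpin, miR-3570, across the miR-181a-1 hairpin on chromosome 13. In the expression table miR-3570 had 0 counts in all 6 libraries, whereas miR-181a-1-3p had 9303 to 12517.

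The miR-23a, miR-27a and miR-24-2 hairpins lie before miR-181c on chromosome 19, with 28447 bases between miR-23a, the nearest, and miR-181c. Their levels were 62.6 to 83.9 CPM for miR-23a-3p, 112 to 174 CPM for miR-27a-3p and 54.8 to 81.9 CPM for miR-24-2-5p. The level of miR-24-3p, which is also cut from a hairpin elsewhere, was 931 to 1137 CPM, within the 822 to 1281 CPM of miR-181c-3p.

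No transcript of the lncRNA table (0 of 22591) carried a name of Nr6a1, of either lncRNA gene that spans the miR-181 hairpins in RefSeq, or of miR-181 itself, so no host transcript was compared. A noncoding transcript that carries the symbol of the neighbouring gene Nanos3, NONRATT014557.2, was chosen with its values known. It had 54, 41 and 38 counts in the 3 normal lncRNA columns and 42, 44 and 45 in the ARM libraries, with the normal libraries on both sides of the ARM ones.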
